A study of Mus musculus with 8 samples.

Results

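The small leucine-rich proteoglycans (SLRPs) Dcn, Bgn, Aspn, Lum, Fmod, Omd, Kera, Prelp and Ogn were followed in cultures of calvarial osteoblastic cells from WT and Def6-/- mice. They were taken by gene symbol and are 9 of the 24421 genes in the expression files, and all 9 were found. The study asked how loss of Def6, an intracellular signalling protein, acts on osteoblast differentiation. Cells were released by collagenase and dispase from the skull bones of newborn pups (0 to 3 days old) of strain C57BL/6, either WT or Def6-/-, and sequenced as poly-A RNA at day 0 or after 12 days in osteogenic medium (ascorbic acid and β-glycerophosphate), with 2 biological replicates in each of the 4 groups. The Def6-/- mice carry the deletion in every cell type, so that any other cells in the culture lack Def6 too. How many pups gave the cells of a library is not given in the sources used here.

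SLRPs are secreted proteins of the extracellular matrix whose core is a curved stack of leucine-rich repeats, and many carry sulfated glycosaminoglycan chains. They bind collagen fibrils, where they set fibril thickness and spacing, and they bind growth factors such as TGF-β. Class I holds decorin (Dcn) and biglycan (Bgn), which carry chondroitin or dermatan sulfate, and asporin (Aspn), which has no typical attachment site for such a chain. Class II holds lumican (Lum), fibromodulin (Fmod), keratocan (Kera) and osteomodulin (Omd), which can carry keratan sulfate, and Prelp, whose basic end binds heparan sulfate. Osteoglycin (Ogn) belongs to class III. Biglycan is known for its part in the mineralizing matrix of bone, and osteomodulin was first isolated from bone.

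Each library held between 2414856 and 3482835 reads on genes. Def6 had 112 to 186 reads in the 4 WT libraries and 0 to 2 reads in the 4 Def6-/- libraries, which matches the labels. The 2 WT libraries at day 0 stood farther apart than any other pair of replicates, with a chi-square per gene of 31.9 against 4.28 to 11.8 in the other groups. Osteoblast markers, 10 in all, summed to between 13358 and 27602 normalized CPM over the day 0 libraries. Their sum lay between 46111 and 67049 at day 12, and Col1a1 made up most of it. By gene, 5 of the 10 were higher at day 12 in each genotype at an adjusted limma p under 0.05. Over all genes tested, 12.7% were higher in WT and 12% in Def6-/- cells. Bglap had 0 reads in all 4 day 0 libraries and 18 to 46 at day 12. Runx2, the transcription factor that defines the lineage, averaged 78.1 ± 38.5 normalized CPM (SD, n = 2) over the WT libraries of day 0. Over those of day 12 it averaged 100.0 ± 10.2. The summed level of 14 macrophage markers lay between 186 and 416 normalized CPM over the day 0 libraries and between 3224 and 6390 at day 12. Adipocyte markers, 9 in all, summed to between 50.0 and 71.0 at day 0 and to between 435 and 579 at day 12. The sum of 9 fibroblast and mesenchyme markers lay between 1367 and 1577 at day 0 and between 2997 and 3393 at day 12. That of 8 chondrocyte markers lay between 2016 and 3890 and then between 975 and 1402, and Col2a1 made up most of it. By gene, 1 of 6 tested chondrocyte markers was higher and 1 lower at day 12 in WT cells at that adjusted p. In Def6-/- cells 2 were higher and 2 lower. Their median log2 fold change was 0.16 in WT and 0.34 in Def6-/- cells. Over all genes tested, 5.63% were lower in WT and 4.79% in Def6-/- cells. The sum of 5 tendon markers lay between 399 and 833 in WT libraries at day 0 and between 935 and 968 at day 12. In Def6-/- libraries it lay between 439 and 593 and then between 777 and 897. By gene, 2 of the 5 were higher and 1 lower at day 12 in WT cells at that adjusted p, and 1 and 1 in Def6-/- cells. The 9 endothelial markers summed to between 7.77 and 12.9 at day 0 and to between 16.9 and 20.52 at day 12. The 6 skeletal muscle markers summed to between 2.47 and 13.9, with Myod1 at 0 reads in every library. Normalized CPM are the recovered reads of a gene scaled to the reads on genes of its library, corrected with TMM factors for differences in composition between libraries.

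Between day 0 and day 12, 7 of the 8 SLRPs that could be tested rose in WT cells and the same 7 rose in Def6-/- cells, and biglycan did not pass the test in either genotype. Lumican and decorin rose most among the members in WT cells, by 3.71 and 3.59 on the log2 scale, and osteomodulin, osteoglycin, Prelp, asporin and fibromodulin followed. Over all 12348 genes tested with limma, 12.7% were higher and 5.63% were lower at day 12 in WT cells at an adjusted p under 0.05. Def6-/- cells had 12% of genes higher and 4.79% lower. The libraries of day 12 lay wholly above those of day 0 for the same 7 members in each genotype, as they did for 29.3% of all genes in WT cells (26.6% lay wholly below) and for 35.2% in Def6-/- cells (32.4% below). The median log2 fold change of the 8 tested members was 2.26 for WT and 2.01 for Def6-/- cells, beside -0.0010 and 0.0098 over all genes tested. Keratocan, the ninth member, was below 1 CPM on average in every deposited group and was not tested. The count of 7 held in both genotypes with edgeR, with DESeq2 and without either WT library of day 0, and fell to 6 in Def6-/- cells, through the loss of Prelp, without any 1 of the 4 Def6-/- libraries. These are bulk samples, in which fewer cells of a type and less RNA per cell cannot be told apart. When summed, the osteoblast, macrophage, adipocyte, fibroblast, chondrocyte, tendon and endothelial markers above moved with the day in each genotype as well. Their part in the SLRP changes was not tested.

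**Figure D1:**
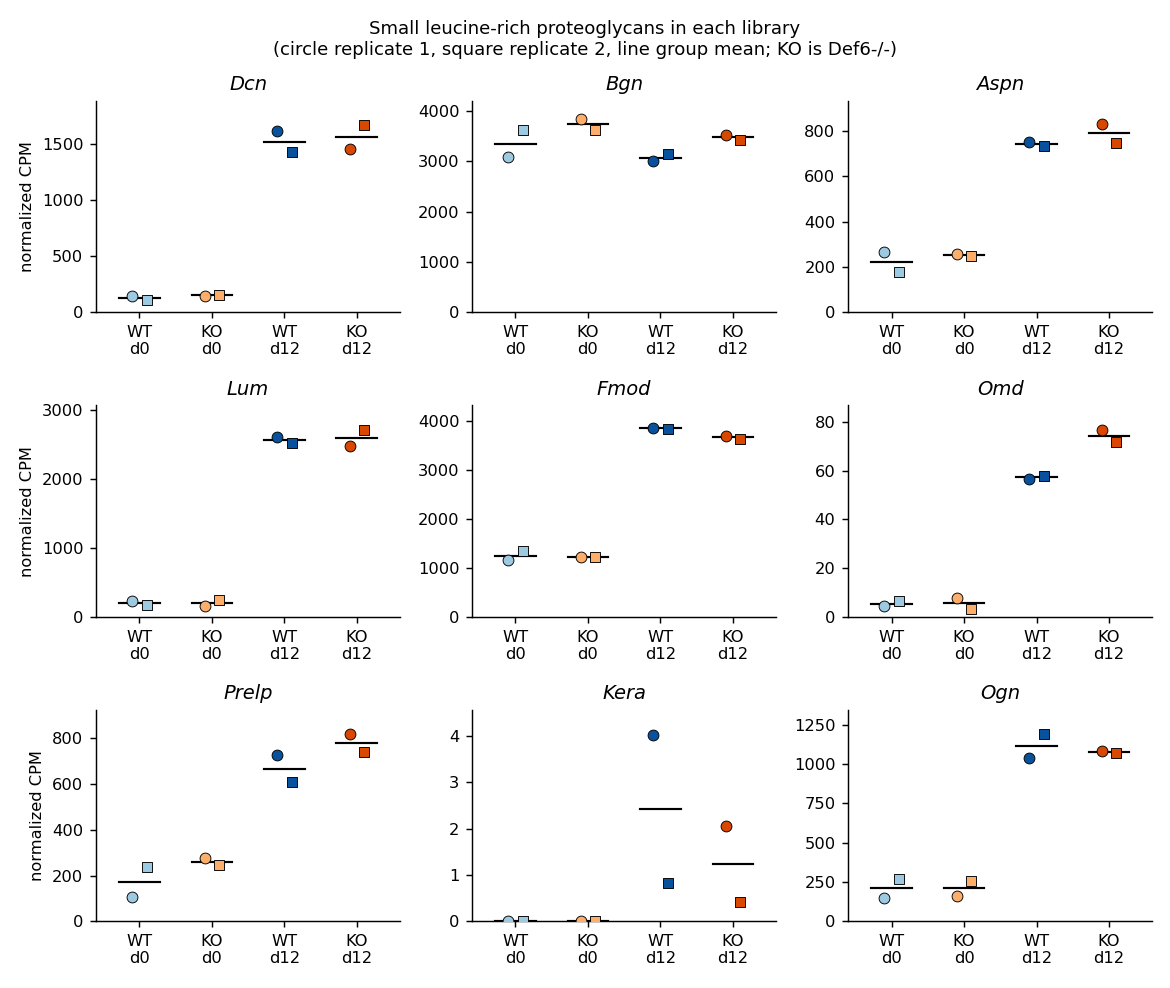
Normalized CPM (vertical axis, from 0) of the 9 members in each of the 8 libraries, with 1 panel per gene; circles are replicate 1, squares replicate 2, and lines group means. For Dcn, Aspn, Lum, Fmod, Omd, Prelp and Ogn the 4 day 12 libraries lie above the 4 day 0 libraries, and Bgn stays between 3001 and 3849 throughout.

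Among the class I genes, decorin (chromosome 10, 97479609 to 97518143, GRCm38) regulates collagen fibril growth and sequesters TGF-β. Dcn was at 144 and 109 normalized CPM in the 2 WT libraries at day 0, and at 1609 and 1429 at day 12. In Def6-/- libraries it was at 146 and 158 at day 0 and at 1453 and 1664 at day 12. No library of day 0 came near those of day 12 in either genotype. On the log2 scale Dcn rose by 3.59 in WT cells (standard error 0.19, limma adjusted p = 3.37e-05) and by 3.35 in Def6-/- cells (adjusted p = 3.62e-05). By size of change, Dcn stood at place 111 of the 12348 genes in WT cells and at place 153 in Def6-/- cells.

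Biglycan (chromosome X, 73483602 to 73495933), the class I relative of decorin, behaved differently in time. Bgn was at 3081 and 3620 normalized CPM in WT cells at day 0 and at 3001 and 3141 at day 12. The Def6-/- values were 3849 and 3617 before osteogenic medium and 3526 and 3432 after it. The WT ranges overlapped between days, while both Def6-/- libraries of day 12 lay slightly below both of day 0. Its log2 fold change was -0.12 for WT (95% confidence interval -0.58 to 0.34) and -0.10 for Def6-/- cells (-0.56 to 0.36), with adjusted limma p of 0.720 and 0.798. Bgn is X-linked, and the libraries differed in sex-linked reads. Y-linked genes had 143 to 303 reads in WT replicate 1 and Def6-/- replicate 2 at both days, and 0 or 1 read in the other 4 libraries. Each group thus held 1 library of either kind, and all 8 had Xist reads, at 136 to 276 normalized CPM in the 4 libraries with Y-linked reads and 431 to 644 in the others. In each of the 4 groups the library with Y-linked reads had the lower Bgn value, and the part of sex in the Bgn values was not tested.

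Asporin (chromosome 13, 49544443 to 49567565), which binds collagen and inhibits TGF-β, was at 268 and 179 normalized CPM in WT cells at day 0 and at 753 and 733 at day 12. Aspn reached 258 and 247 in the Def6-/- libraries at day 0, and 832 and 748 at day 12. The groups of the 2 days did not overlap. Aspn rose by 1.76 on the log2 scale in WT cells (standard error 0.21, adjusted p = 0.000818) and by 1.64 in Def6-/- cells (adjusted p = 0.00111; limma). Within class I, then, the log2 changes in WT cells ran from -0.12 for Bgn to 3.59 for Dcn.

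Among the class II genes, lumican (chromosome 10, 97565128 to 97572703) organizes collagen fibrils in cornea, skin and bone. Lum was at 230 and 166 normalized CPM in WT cells at day 0 and at 2609 and 2526 at day 12. The Def6-/- libraries held 152 and 241 at day 0, and 2475 and 2714 at day 12. Even the lowest day 12 library exceeded the highest day 0 library many times over. Lum rose by 3.71 on the log2 scale in WT cells (standard error 0.25, adjusted p = 5.82e-05) and by 3.75 in Def6-/- cells (adjusted p = 5.01e-05; limma). These were the highest values among the tested members, at place 94 of all genes in WT cells and at place 89 in Def6-/- cells.

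Fibromodulin (chromosome 1, 134037254 to 134048277) binds the same region of fibrillar collagen as lumican and is strongly made by tendon. Fmod was at 1154 and 1348 normalized CPM in WT cells at day 0 and at 3866 and 3840 at day 12. Def6-/- values were 1223 and 1227 at day 0, and 3703 and 3636 at day 12. The libraries of a group differed far less than the days did. The rise was 1.63 on the log2 scale for WT (standard error 0.19, adjusted p = 0.000697) and 1.58 for Def6-/- cells (adjusted p = 0.000779; limma). Fmod started from a far higher level than Lum and rose less.

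Osteomodulin (chromosome 13, 49582462 to 49592822), also called osteoadherin, is found mainly in mineralized tissue and binds osteoblasts through an integrin. Omd was at 4.34 and 6.36 normalized CPM in WT cells at day 0 and at 56.8 and 57.8 at day 12. Def6-/- libraries were at 7.90 and 3.41 at day 0, and at 76.8 and 71.7 at day 12. It was the member with the fewest reads among those tested, and each day 12 library still stood clear of each day 0 library. On log2(CPM + 1), which understates changes of low genes, the rise was 3.22 for WT (standard error 0.34, adjusted p = 0.000472) and 3.59 for Def6-/- cells (adjusted p = 0.000281; limma).

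Prelp (chromosome 1, 133910304 to 133921414, minus strand) is thought to link collagen fibrils to basement membranes. It was at 108 and 236 normalized CPM in WT cells at day 0 and at 726 and 611 at day 12. In Def6-/- libraries it stood at 277 and 246 at day 0, then at 821 and 740 at day 12. WT replicate 1 at day 0 was the lowest of the 8 libraries by a wide margin. Prelp rose by 2.05 on the log2 scale in WT cells (standard error 0.32, adjusted p = 0.00287) and by 1.57 in Def6-/- cells (adjusted p = 0.0101; limma). In Def6-/- cells this call was lost when any 1 of the 4 Def6-/- libraries was left out, with adjusted limma p between 0.0612 and 0.0859 and a log2 fold change between 1.49 and 1.66; the lone library of a group is then assumed to vary like the other groups. Without WT replicate 1 at day 0 the WT value was 1.49.

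Keratocan (chromosome 10, 97606879 to 97613692), a gene of the corneal stroma, had 0 reads in all 4 day 0 libraries. At day 12 it had 14 and 2 reads in the WT libraries and 5 and 1 in the Def6-/- libraries. Set against a floor of 3 reads over both day 0 libraries of a genotype, Kera was 4.87-fold higher at day 12 in WT cells and 2.34-fold higher in Def6-/- cells. These bounds allow for the 0 reads of day 0 only. The day 12 reads, 16 in WT and 6 in Def6-/- cells over both libraries, were taken without counting error. Most of the WT reads came from replicate 1. With Kera entered at these bounds, the median log2 change over all 9 members was 2.28 for WT and 1.64 for Def6-/- cells. The WT median is the Kera bound itself, so it was set by the chosen floor. In a fit without the filter, Kera passed in neither genotype. Its log2 fold change there was 1.59 in WT and 1.04 in Def6-/- cells (adjusted limma p of 0.0705 and 0.227).

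Osteoglycin (chromosome 13, 49608046 to 49624501), the class III member, is a matrix protein of bone and other connective tissues. Ogn was at 150 and 269 normalized CPM in WT cells at day 0 and at 1039 and 1192 at day 12. The Def6-/- libraries were at 164 and 258 at day 0, and at 1082 and 1073 at day 12. All 4 libraries of day 12 lay above all 4 of day 0. Ogn rose by 2.47 on the log2 scale in WT cells (standard error 0.30, adjusted p = 0.000874) and by 2.38 in Def6-/- cells (adjusted p = 0.00102; limma).

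**Figure D2:**
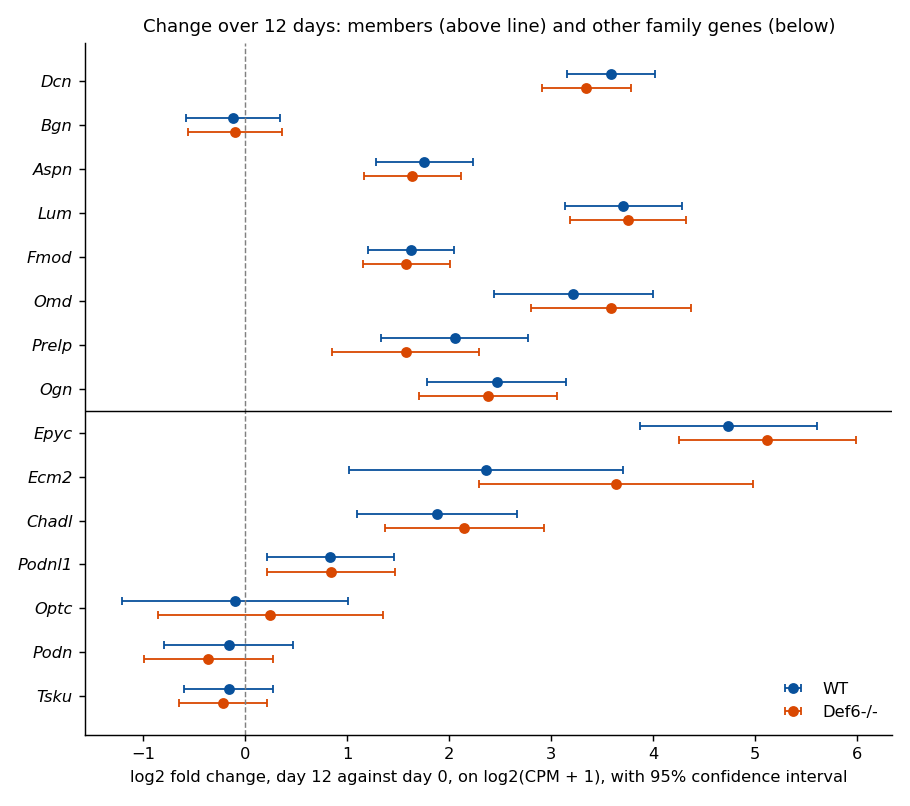
Log2 fold change from day 0 to day 12 (horizontal axis, on log2(CPM + 1)) for the 8 tested members above the line and 7 other family genes below it, in WT (blue) and Def6-/- (orange) cells, with 95% confidence intervals from limma. The intervals of Bgn include 0, and those of the other 7 members lie above 0.

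The share of each SLRP among the transcripts of the family changed with the day. The 9 members together took 0.566% ± 0.0867 (SD, n = 2) of the reads on genes in the WT libraries of day 0 and 1.32% ± 0.0620 in those of day 12. Def6-/- cells gave shares of 0.631% ± 0.00346 and 1.36% ± 0.0140. For a single library, the lowest share was 0.504% (95% Wilson interval 0.496 to 0.513) in WT replicate 1 at day 0. Such intervals cover counting error alone.

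To compare genes with each other, normalized CPM were divided by the length of the longest coding transcript in kilobases. Biglycan led in every group, at 1385 normalized CPM per kb in the WT libraries of day 0 and at 1270 in those of day 12. At day 12 this lead depended on the lengths used, 2419 bases for Bgn and 3120 for Fmod. Without the division, Fmod was at 3636 to 3866 normalized CPM in the day 12 libraries and Bgn at 3001 to 3526. Of the summed level per kb of the 9 members, Bgn held 63.9% ± 1.35 in the WT libraries of day 0 and 23.6% ± 0.968 in those of day 12. Fmod moved from 18.5% ± 0.314 to 22.9% ± 0.0949, Lum from 3.79% ± 1.2 to 19.5% ± 0.270, and Dcn from 3.36% ± 0.952 to 16.05% ± 1.2. Bgn in Def6-/- cells was at 65.2% ± 2.28 at day 0 and at 25.8% ± 0.795 at day 12. The ratio of Dcn to Bgn per kb lay between 0.0415 and 0.0642 in the day 0 libraries and between 0.567 and 0.737 in those of day 12. For the class II pair, Lum stood at 0.157 to 0.254 of Fmod at day 0 and at 0.838 to 0.951 of it at day 12.

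In WT cells at day 0 the order per kb was Bgn, Fmod, Aspn, Ogn, Lum, Dcn, Prelp, Omd and Kera. From Aspn down to Prelp, each gene's range over the 2 libraries overlapped with that of the next, so that neighbours could not be ordered, although Aspn and Lum lay wholly above Prelp. At day 12 the WT order was Bgn, Fmod, Lum, Dcn, Ogn, Aspn, Prelp, Omd and Kera, with no overlap between neighbours. Bgn and Fmod came close there, at 1241 to 1298 and 1231 to 1239 normalized CPM per kb. The Def6-/- order at day 12 was the same as in WT cells. Among the 11614 tested genes with a coding length, Bgn held place 22 in the WT group of day 0, and in that of day 12 Bgn, Fmod, Lum and Dcn held places 18, 19, 23 and 33.

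**Figure D3:**
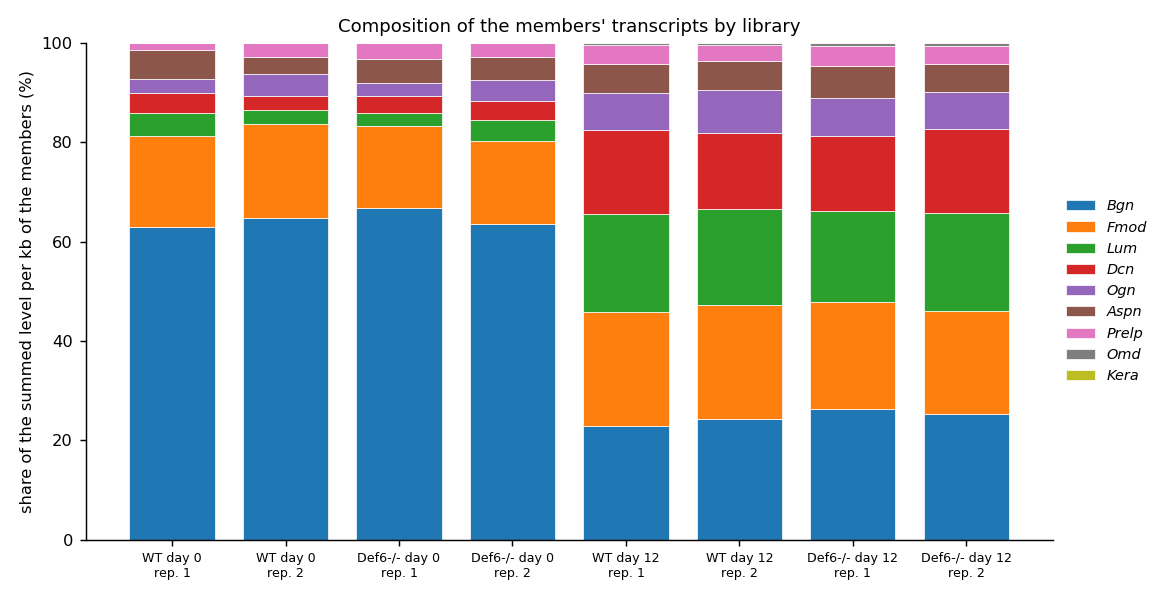
Share (%) of the summed level per kb that each of the 9 members held in each of the 8 libraries, as stacked bars that add up to 100%. Bgn went from between 62.9% and 66.8% of the bar in the day 0 libraries to between 22.9% and 26.4% in the day 12 libraries, while Lum and Dcn widened.

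The second question was whether the genotypes differed. At neither day did an SLRP pass the test between Def6-/- and WT cells: 0 of 8 had an adjusted limma p under 0.05, and 0 of 8 met the rule used by the study, an unadjusted p under 0.05 with a change of at least 1.2-fold. edgeR and DESeq2 also gave 0 of 8 by both rules. Over all genes tested, that rule took 0.988% as higher and 1.31% as lower in Def6-/- cells at day 0, and 0.810% and 0.591% at day 12. The median log2 difference of the 8 members was 0.10 at day 0 and 0.06 at day 12, beside -0.02 and -0.00049 over all genes. With 2 libraries per group the intervals were wide: a 1.2-fold higher level in Def6-/- cells lay inside the 95% interval of each tested member at both days.

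At day 0 the largest genotype difference was that of Prelp, at 108 and 236 normalized CPM in WT and 277 and 246 in Def6-/- cells. Both Def6-/- libraries exceeded both WT libraries, which held for 2 members, Prelp and Dcn, and for 10.9% of all genes. The log2 fold change of Prelp was 0.71 (95% interval -0.02 to 1.43, unadjusted limma p of 0.0541, adjusted p = 0.908). It hung on WT replicate 1: the value was 0.15 without that library, and 1.27 without WT replicate 2 (adjusted p = 0.000334), where the single WT library left is assumed to vary like the other groups. Without WT replicate 1, Dcn and Aspn instead had unadjusted limma p of 0.00671 and 0.0030, with log2 fold changes of 0.47 and 0.49 and adjusted p of 0.976 for both. Dcn, Bgn and Aspn were otherwise 0.28, 0.16 and 0.20 higher on the log2 scale, and Lum, Fmod, Omd and Ogn differed by less than 0.04 in size.

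At day 12 the largest genotype difference was that of Omd. It was at 56.8 and 57.8 normalized CPM in WT cells and at 76.8 and 71.7 in Def6-/- cells, a log2 fold change of 0.37 (95% interval -0.41 to 1.15, unadjusted limma p of 0.314). When only the 4 day 12 libraries were fitted, its unadjusted limma p was 0.0153 and its adjusted p was 0.995. Bgn at 0.18 (-0.28 to 0.64) and Prelp at 0.23 (-0.50 to 0.95) also had both Def6-/- libraries above both WT libraries, and Fmod at -0.07 (-0.50 to 0.35) had both below. Among all genes 16.8% lay above in this way and 15.9% lay below. For Dcn (0.04), Lum (0.01), Aspn (0.09) and Ogn (-0.05) the libraries of the genotypes overlapped. Adipocyte markers moved with the genotype at day 12, from 435 to 469 normalized CPM in WT libraries to 550 to 579 in Def6-/- libraries when summed, a sum carried mostly by Lpl and Cd36. By gene, 6 of 7 tested adipocyte markers were higher in Def6-/- cells, 4 of them at an unadjusted p under 0.05, with a median log2 difference of 1.28. All 10 osteoblast markers were higher, 8 of them without overlap and 2 at an unadjusted p under 0.05, with a median of 0.54, and all 14 macrophage markers were lower, with a median of -0.33 and none at that p. The part of these markers in the Omd, Bgn and Prelp values was not tested.

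**Figure D4:**
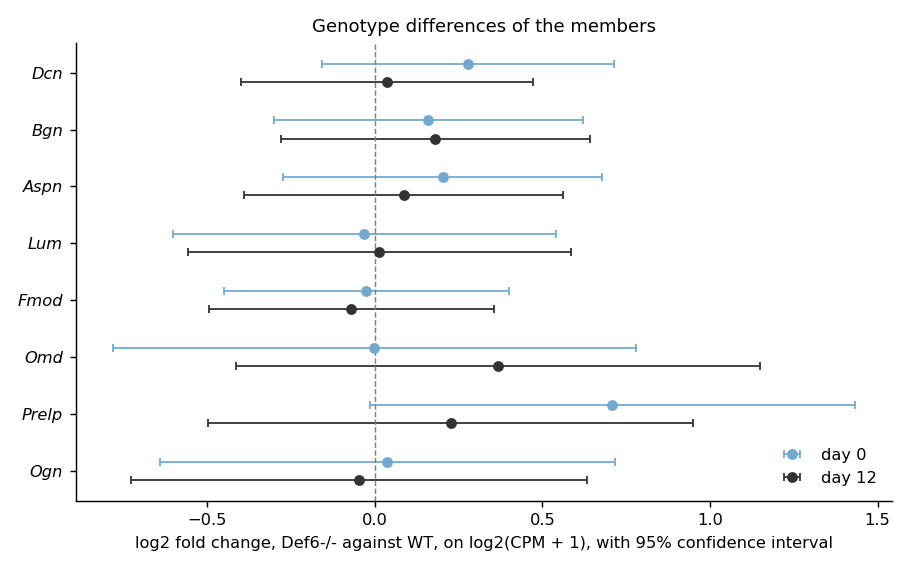
Log2 fold change of Def6-/- against WT cells (horizontal axis, on log2(CPM + 1)) for the 8 tested members at day 0 (light blue) and day 12 (dark), with 95% confidence intervals from limma. All 16 intervals include 0, and Prelp at day 0, at 0.71, comes closest to leaving it.

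The change over 12 days was also compared between the genotypes directly. No member had an adjusted limma p under 0.05 for this interaction, and 0 of 8 met the unadjusted rule, which took 0.705% of all genes in one direction and 0.421% in the other. The most distant value was that of Prelp, whose rise was smaller in Def6-/- cells by 0.48 on the log2 scale (interaction -0.48, 95% interval -1.505 to 0.54). Without WT replicate 2 at day 0 this became -1.04 with an adjusted p of 0.00846, and without WT replicate 1 it turned to 0.08. Omd had 0.37 (-0.73 to 1.47), Dcn -0.24, Aspn -0.12, and Bgn, Lum, Fmod and Ogn were between -0.08 and 0.04. The interaction uses all 8 libraries, and each comparison of days shares 1 group with each comparison of genotypes.

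The members outside chromosome X lie in 3 clusters. On chromosome 1, Optc, Prelp and Fmod span 151.1 kb; on chromosome 10, Dcn, Lum, Kera and Epyc span 202.8 kb; and on chromosome 13, Ecm2, Aspn, Omd and Ogn span 119.7 kb. All family genes of the chromosome 10 and chromosome 13 clusters that could be tested rose in both genotypes. Epyc, which encodes the cartilage SLRP epiphycan, was at 9.87 and 4.59 normalized CPM in WT libraries at day 0 and at 209 and 205 at day 12. Its log2 fold change of 4.74 for WT (adjusted p = 0.000119) and 5.12 in Def6-/- cells (adjusted p = 7.53e-05; limma) exceeded those of the 8 tested members. Ecm2, a related leucine-rich matrix protein, was at 5.52 and 2.47 at day 0 and at 23.5 and 23.5 at day 12 in WT cells (log2 fold change 2.36, limma adjusted p = 0.0253). In Def6-/- cells Ecm2 had 8 and 0 reads at day 0 and 65 and 50 reads at day 12 (log2 fold change 3.63, adjusted p = 0.00366). On chromosome 1, Optc, which encodes opticin of the eye, had 2 to 10 reads per library with a log2 fold change of -0.10 in WT cells (adjusted p = 0.912), beside 2.05 for its neighbour Prelp.

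Genes around the clusters served as local comparison. The 3 SLRPs and Ecm2 on chromosome 13 lie within Cenpp, a centromere protein gene on the opposite strand. Cenpp had 3 to 12 reads per library and a log2 fold change of -0.24 in WT and 0.17 in Def6-/- cells, neither of which passed the test. Whether reads were counted by strand is not given in the sources used here, so reads of Cenpp and of the genes inside it may not have been told apart. At day 0 the counts of Cenpp were near those of Ecm2, with 0 to 14 reads, and of Omd, with 10 to 21. Nol8, the next gene to the right, was at -0.35 in WT cells (adjusted p = 0.403). On chromosome 10 the noncoding Gm10754, which overlaps the end of Epyc on the opposite strand, had 4 and 1 reads in WT libraries at day 0 and 70 and 47 at day 12 (log2 fold change 3.48, adjusted p = 0.000506). In Def6-/- cells it went from 0 reads to 89 over both libraries. Against the same floor of 3 reads this was 34.7-fold higher, with the day 12 reads taken without counting error. Epyc had 387 to 728 reads per library at day 12. Without a known strand setting, reads of Gm10754 and of Epyc may not have been told apart where the genes overlap. The noncoding 4930473O22Rik, between Lum and Kera, had 0 reads in every library, and Btg1, the nearest coding gene before Dcn, was at 0.61 in WT cells (adjusted p = 0.0650). Around the chromosome 1 cluster, Atp2b4 was 1.30 higher in WT cells at day 12 (adjusted p = 0.0401), and Btg2 was at -0.55 (adjusted p = 0.139; limma). Haus7 beside Bgn was at -0.51 (adjusted p = 0.164).

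**Figure D5:**
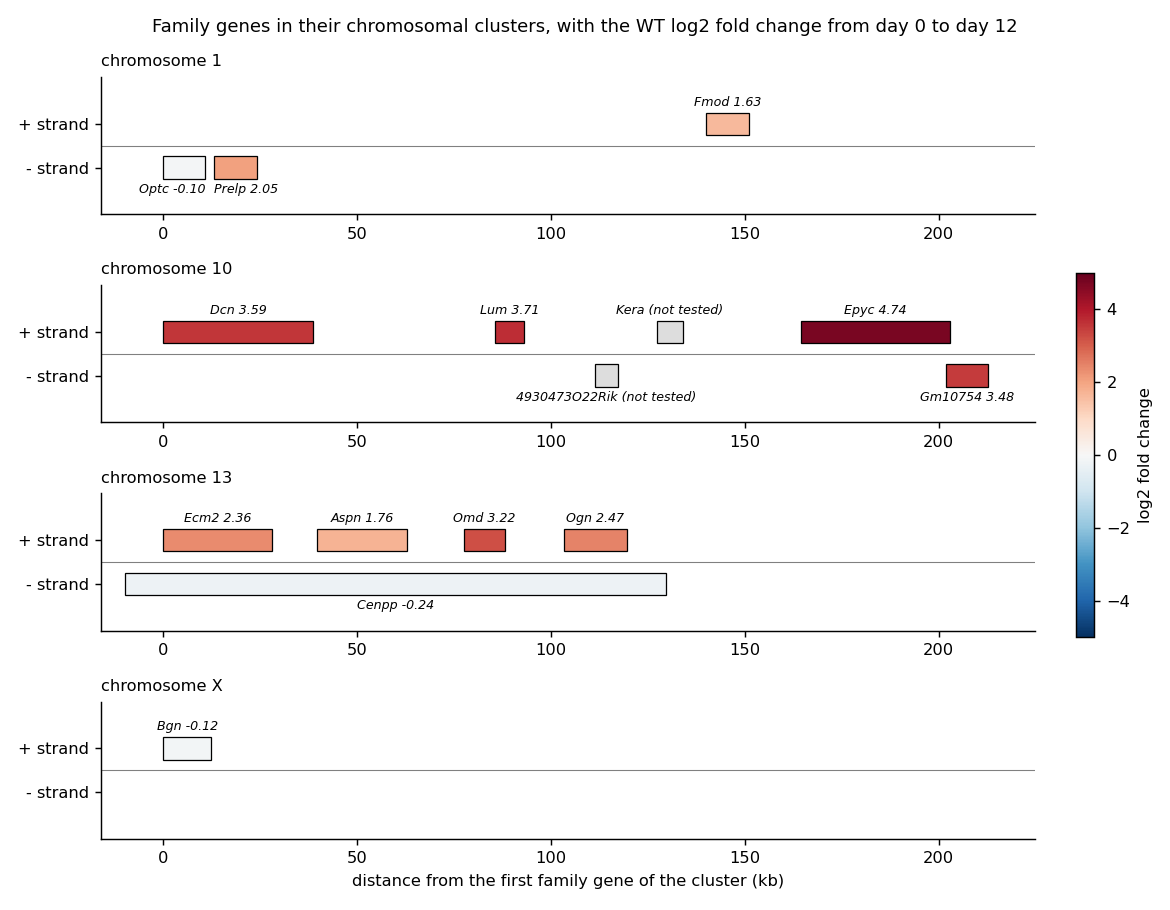
Family genes and the genes annotated between or over them, by strand and by distance (kb) from the first family gene of each cluster, coloured and labelled by the WT log2 fold change from day 0 to day 12; Cenpp and Gm10754 extend beyond the boxes drawn, and grey genes were not tested. The tested family genes of chromosomes 10 and 13 are between 1.76 and 4.74, whereas Optc, Cenpp and Bgn lie between -0.24 and -0.10.

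The promoters of the 3 neighbouring chromosome 13 genes, which rose together, are shown beside that of Bgn, which did not pass the test. RefSeq sequences (GRCm38.p6) were at hand for 7 of the 9 members. The 250 bases before the transcription start are given 5′ to 3′ on the strand of the gene, which is the plus strand for all 4, from chr13:49544193-49544442 for Aspn, chr13:49582212-49582461 for Omd, chr13:49607765-49608014 for Ogn and chrX:73483351-73483600 for Bgn. Capitals mark matches, on either strand, to TATAAA (the TATA box), to CCAAT (the motif of NF-Y), to CANNTG (the E-box), to TGANTCA (the AP-1 motif), to TGTGGT (the RUNX motif), to CAGAC (the SMAD motif) or to GGGCGG (the GC box).
Aspn: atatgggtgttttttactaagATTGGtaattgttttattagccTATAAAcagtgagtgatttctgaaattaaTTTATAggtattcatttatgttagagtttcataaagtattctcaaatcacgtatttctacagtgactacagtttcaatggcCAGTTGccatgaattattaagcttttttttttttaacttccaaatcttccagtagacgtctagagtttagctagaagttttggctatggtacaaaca
Omd: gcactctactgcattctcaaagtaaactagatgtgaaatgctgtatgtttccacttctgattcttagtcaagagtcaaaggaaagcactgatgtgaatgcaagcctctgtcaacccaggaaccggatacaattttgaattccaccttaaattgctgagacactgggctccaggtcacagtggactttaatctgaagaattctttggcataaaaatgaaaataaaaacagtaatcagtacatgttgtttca
Ogn: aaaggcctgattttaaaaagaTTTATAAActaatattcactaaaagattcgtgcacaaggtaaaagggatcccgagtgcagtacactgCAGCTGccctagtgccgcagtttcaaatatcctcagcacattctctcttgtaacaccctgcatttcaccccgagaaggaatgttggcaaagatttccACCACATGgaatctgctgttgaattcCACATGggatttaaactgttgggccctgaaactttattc
Bgn: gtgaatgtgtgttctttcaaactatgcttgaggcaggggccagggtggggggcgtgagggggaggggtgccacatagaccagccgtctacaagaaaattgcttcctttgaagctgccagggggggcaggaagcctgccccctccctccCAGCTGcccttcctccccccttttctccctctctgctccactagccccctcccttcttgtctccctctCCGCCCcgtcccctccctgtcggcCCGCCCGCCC
The 4 windows differed in base composition. Their GC content was 30.0% for Aspn, 38.4% for Omd, 42.0% for Ogn and 64.4% for Bgn. The median over 32851 promoter windows of the same length was 52.4%. Of the windows not printed, those of Fmod and Prelp, which also rose, had 51.2% and 55.6%, and that of Kera had 42.4%. The Bgn window held 3 matches to the GC box, of which the last 2 begin 10 and 6 bases before the start and overlap each other, and 1 E-box. The GC box is found in 32.7% of all windows and in 58.2% of those of tested genes. Aspn held 2 TATAAA matches, 207 and 178 bases before the start, as well as 1 CCAAT match and 1 E-box. In the Ogn window there were 2 TATAAA matches that overlap each other, 3 E-boxes, and 1 RUNX match that shares bases with an E-box. The Omd window held no match to any of the 7 motifs. TATAAA occurs in 12.4% of all windows and in 6.27% of those of tested genes. The shares were 33.8% and 34.7% for CCAAT, 66.2% and 57.1% for the E-box, 6.75% and 4.41% for AP-1, 14.0% and 10.5% for RUNX, and 42.2% and 40.4% for SMAD. These matches describe the letters of the windows.

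Other genes of the SLRP family and its relatives were counted from a list of 9, of which 7 could be tested. In both genotypes 3 of the 7 rose, Epyc, Ecm2 and Chadl, and none fell. Chadl, which encodes a chondroadherin-like protein, was at 3.95 and 4.24 normalized CPM in WT cells at day 0 and at 17.5 and 18.01 at day 12 (log2 fold change 1.88, limma adjusted p = 0.00607), with 2.15 in Def6-/- cells. Podnl1 was at 0.84 in both genotypes and did not pass the test (adjusted p = 0.0686 in WT cells). Tsku, a secreted inhibitor of growth factor signalling, was at -0.16 and Podn at -0.16 in WT cells, neither past the threshold. Chad had between 0 and 2 reads per library and Nyx between 0 and 8, and both were below the level tested.

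The genes below were counted against the shares over all genes, 12.7% higher and 5.63% lower in WT cells and 12% and 4.79% in Def6-/- cells. For the enzymes that build the sugar chains of SLRPs the counts at an adjusted limma p under 0.05 were near these shares. Of 21 tested genes for chondroitin and dermatan sulfate synthesis, 3 rose in WT cells. They were Xylt2, which starts the chain on the core protein (log2 fold change 1.16), Chst15, a sulfotransferase (1.62), and Chpf, a chain polymerizing factor (0.58). The same 3 rose in Def6-/- cells, where Chsy3 also fell by 1.27. The median of this list was 0.33 in WT and 0.38 in Def6-/- cells. The day 12 libraries lay wholly above those of day 0 for 13 of the 21 in WT and 14 in Def6-/- cells. Among all genes 29.3% and 35.2% did so. They lay wholly below for 1 of the 21 in each genotype, beside 26.6% and 32.4% of all genes. Of 8 tested genes for keratan sulfate synthesis, St3gal1, a sialyltransferase, was the 1 that rose, by 1.83 in WT and 1.63 in Def6-/- cells. B4galt1 at 0.41 and B4galt4 at 0.38, both galactosyltransferases, did not pass in WT cells. Of 10 tested genes for the supply of sugar nucleotides and sulfate, Slc35b2, a carrier of activated sulfate into the Golgi, rose by 0.70 in WT cells and by 0.80 in Def6-/- cells. Ugdh, which makes UDP-glucuronic acid, fell by 0.79 in WT cells, and Uxs1, the next enzyme of that path, was at -0.40 and did not pass.

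The collagens that SLRPs bind changed in part. Of 14 genes for fibrillar and fibril-associated collagens, 6 rose and 1 fell in WT cells, and 4 rose and 1 fell in Def6-/- cells, where 12.7% and 12% of all genes rose. Col14a1, a collagen on the fibril surface, rose by 4.49 in WT and 4.50 in Def6-/- cells. Col3a1 rose by 1.70 and 1.42, and Col1a2, a chain of the main bone collagen, by 1.70 in each genotype. Col2a1, the cartilage collagen, fell by 1.502 and by 1.86.

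Proteases that process or cut SLRPs or the collagens beside them were also counted, and 6 of 10 tested rose in WT cells, 5 rose in Def6-/- cells, and none fell, beside the same 12.7% and 12% of all genes that rose. Tll1, a tolloid-like protease of the family that cleaves the propeptide of biglycan and osteoglycin, rose by 2.82 in WT and 2.43 in Def6-/- cells. Pcolce, which enhances procollagen cleavage, rose by 1.58 and 1.67. Mmp13, a collagenase of osteoblasts and hypertrophic cartilage, rose by 2.23 and 2.67.

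Of 16 tested genes for growth factors and receptors that SLRPs bind, 8 rose and 3 fell in WT cells, and 7 rose and 3 fell in Def6-/- cells. Over all genes 12.7% rose and 5.63% fell in WT cells. Tlr2, a receptor for biglycan, rose by 2.83 in WT and 2.81 in Def6-/- cells, and the macrophage markers, among cells that carry this receptor, rose between the same days; their part was not tested. Egfr, which decorin binds, rose by 1.89 and 1.73. Tgfb3, a ligand that decorin can hold, fell by 1.78 and 1.89.

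Between genotypes at day 12, 0 genes of these 6 lists had an unadjusted limma p under 0.05. The smallest p belonged to Chsy3 (log2 fold change -0.45) and Dse (0.16), St3gal1 (0.18) and B4galt4 (-0.23), Ugdh (0.08) and Slc35d1 (0.17), Col11a2 (0.66) and Col2a1 (-0.36), Tll1 (-0.36) and Mmp13 (0.40), and Met (0.59) and Tlr2 (-0.51) in the lists in the order above. Each had an adjusted p of 1.0.

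Finally, the genes nearest to each member in pattern over the 8 libraries were sought among the 12347 other tested genes, by the root mean square difference of log2 values after each gene's own mean was subtracted. For Dcn these were Rassf4 at 0.18 and Nrep at 0.18, and for Lum Mdk, the growth factor midkine, at 0.19 and Crispld1 at 0.21. Fmod had Emilin1, a glycoprotein of elastic fibres, at 0.07 and Gm2a at 0.10. Bgn had Rgp1 at 0.05 and Col5a2, a chain of fibrillar collagen V, at 0.05, and both of these changed by less than 0.1 in size between days. For Aspn, Pdp1 and the matrix protein gene Matn2 came nearest, at 0.12 each. Omd, which had 10 to 21 reads per library at day 0, had the most distant neighbours, Rarres2 at 0.26 and Wfdc1 at 0.27. Prelp was closest to Fry and Ssc5d, at 0.16 each, and Ogn to Col27a1, a fibrillar collagen, at 0.13 and Il34 at 0.14. For most members further genes lay little farther off than those named, so that being nearest does not set a gene apart. No member was the nearest gene of another member.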

How the data were processed

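Poly-A RNA of 8 libraries was sequenced, 2 for each group of genotype and day. The authors trimmed reads with fastp, aligned them with HISAT2 against mm10, assigned them to genes by HTSeq and made CPM (counts scaled to library size) with edgeR; versions, annotation and strand setting are not given in the sources used here. The deposited CPM are relative to all reads that HTSeq handled, of which 64.69% to 71.16% lay in rows that name no gene. Whole reads came back from 99.957% of 114821 positive values (tolerance 0.02 reads). The 49 exceptions lie in 9 macrophage and osteoclast genes and in no SLRP; Ptprc was left out of the macrophage markers for this reason.

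CPM were set to reads on genes with TMM factors, and log2(CPM + 1) was fitted with limma 3.58.1 (lmFit, eBayes with a trend, R 4.3.3) with 4 group means over all 8 libraries, for the 12348 genes whose deposited CPM averaged 1 or more in any group. Benjamini-Hochberg adjustment covered all genes tested. edgeR 4.0.16 (quasi-likelihood) and DESeq2 1.42.0 on the recovered reads were alternatives, as were other pseudocounts, filters and scalings and leaving out each library. The fits were tested on simulated data. Positions and lengths came from GENCODE M21. At 2414856 to 3482835 reads on genes per library, genes with a few reads, such as Kera, are poorly measured.

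The members and gene lists were chosen with earlier results of these data known. Named were all members, the other SLRPs, genes in and beside the clusters, and of each further list the 3 genes with the smallest limma p for WT day 12 against day 0 and the 2 for Def6-/- against WT at day 12, besides the 2 genes closest in pattern to each member with at least 10 reads per library. Single markers (Runx2, Bglap, Col1a1, Col2a1, Myod1, Tek, Lpl, Cd36) were chosen after their values were seen.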

Additional observations from a re-analysis of the deposited data

How the results depend on the processing

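The count of 7 members higher at day 12 held in WT cells under all 17 alternatives tried. In Def6-/- cells it held under all but the 4 that left out a Def6-/- library, where it was 6 because Prelp did not pass. Bgn passed the threshold between days under none of them. The median of the members ranged from 2.05 to 2.75 in WT cells and from 1.87 to 2.16 in Def6-/- cells. For genotype, the count by the unadjusted rule became 1 at day 0 with CPM as deposited (Prelp) and 1 at day 12 when the 2 groups were fitted alone (Omd). Leaving out 1 library gave 0 to 1 members at an adjusted p under 0.05 and 0 to 2 by the unadjusted rule at day 0, and the same ranges for the interaction; the WT libraries at day 0 decided these, as described for Prelp, Dcn and Aspn. The cause was not tested. CPM as deposited moved the median of all genes between genotypes at day 0 from -0.02 to 0.10.

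Genotype differences near 0 changed sign. Omd at day 0 became 0.052 with edgeR, 0.057 with DESeq2, 0.016 with a pseudocount of 5, 0.091 with CPM as deposited and 0.017 without a filter. With CPM as deposited, Lum was at 0.11 and Fmod at 0.12 at day 0, Fmod at 0.0027 and Ogn at 0.026 at day 12, and Bgn at -0.053 and Lum at -0.027 in the interaction; without a filter, Lum at day 12 was at -0.0035 and Bgn in the interaction at -0.022. When 1 library was left out, the values at day 0 ranged from -0.086 to 0.49 for Aspn, -0.36 to 0.30 for Lum, -0.14 to 0.086 for Fmod, -0.51 to 0.51 for Omd and -0.38 to 0.46 for Ogn. At day 12 they ranged from -0.061 to 0.13 for Dcn, -0.053 to 0.080 for Lum and -0.15 to 0.052 for Ogn. In the interaction they ranged from -0.10 to 0.14 for Bgn, -0.40 to 0.17 for Aspn, -0.29 to 0.38 for Lum, -0.16 to 0.067 for Fmod, -0.14 to 0.88 for Omd, -1.04 to 0.081 for Prelp and -0.50 to 0.33 for Ogn.

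The labels do not say that libraries with the same replicate number share mice or a batch. Within a genotype the same number had Y-linked reads at both days (replicate 1 in WT, replicate 2 in Def6-/-), so the sex-linked reads followed the number over days and not between genotypes. Deviations of same-numbered libraries from the group means correlated at 0.09 between days in WT cells, 0.15 between days in Def6-/- cells, 0.33 between genotypes at day 0 and 0.04 at day 12. With the replicate number as a block, 7 members were higher at day 12 in each genotype and 0 differed between genotypes, so the block changed no call of a member. With 2 libraries per group and few reads on Omd and Kera, depth and replicate number limit what can be seen.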

Other observations

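Proteoglycan core proteins outside the SLRP family moved in both directions over the 12 days. Of 22 tested, 4 rose and 4 fell in WT cells and 5 rose and 5 fell in Def6-/- cells, with a median log2 fold change of 0.14 and 0.04. Over all genes tested 12.7% rose and 5.63% fell in WT cells, and 12% and 4.79% in Def6-/- cells. Srgn, the serglycin core protein of blood cell granules, rose by 3.46 in WT cells and 3.80 in Def6-/- cells (limma adjusted p = 0.000859 and 0.000561). The macrophage markers rose between the same days, and their part in the Srgn change was not tested. Esm1, the core of endocan, rose by 3.04 and 3.31. Of the 2 endothelial markers that could be tested of 9, Tek rose in WT cells, by 2.004 (limma adjusted p = 0.0303). In Def6-/- cells Tek was at 1.62 (adjusted p = 0.0704). The other marker did not pass in either genotype, at 0.22 in WT and -0.14 in Def6-/- cells. The part of endothelial cells in the Esm1 change was not tested. Gpc3, a glypican on the cell surface, fell by 1.24 and 0.95. Between genotypes at day 12, Cspg4 was 0.74 and Esm1 1.101 higher in Def6-/- cells with unadjusted limma p of 0.0167 and 0.0263 and an adjusted p of 1.0 for both, and no other gene of this list had an unadjusted p under 0.05.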
